A study of Mus musculus with 6 samples.

Results

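Enzymes that connect glutamate, ornithine, citrulline, arginine, glutamine and the polyamines were followed in organoids of the mouse small intestine. The genes were taken by symbol as a list of 9 of the 21397 genes of the deposited table, and 8 of them are described, namely Aldh18a1, Oat, Cps1, Otc, Ass1, Asl, Odc1 and Glul. The organoids were grown from small intestinal (ileal) crypts of Fpr2f/f mice, which carry floxed alleles of the formyl peptide receptor gene and, with no Cre named for these samples, served as the control genotype of the study. The 3 MMK-1 libraries came from organoids kept for 5 days in 1 μmol/L of MMK-1, which is a peptide that activates FPR2, and the 3 control libraries from organoids given 0.1% DMSO, the vehicle, for the same time. Under treatment, the labels of these samples read 1 mM, whereas their protocol text and the study's methods give the micromolar dose used here. The methods give an age of 8 to 12 weeks for the mice, and a figure legend of the study states that a sample held organoids of 3 mice, so the libraries are pools. The organoids grew in Matrigel in a commercial growth medium, and levels of immune and mesenchymal markers are given below. No label says that replicates came from separate cultures, and p-values therefore measure only the spread between these samples.

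In the enterocytes of the small intestine, mitochondria turn glutamate into ornithine and then into citrulline, which leaves the gut and is made into arginine, mainly by the kidney. Ornithine is also where polyamine synthesis starts, a pathway that dividing cells depend on. Glutamine, a main fuel of enterocytes, is made from glutamate by glutamine synthetase.

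The starts of 3 of the genes are printed because these were the promoters at hand for members whose level changed by a wide margin, Odc1 and Otc with lower and Glul with higher levels after MMK-1. Each window runs 5′ to 3′ on the coding strand from 250 bases before to 50 bases after the RefSeq start (GRCm38.p6), and capitals mark a GC box (GGGCGG on either strand). The windows lie at chr12:17544623-17544922 (plus strand) for Odc1, chrX:10252055-10252354 (plus strand) for Otc and chr1:153899679-153899978 (plus strand) for Glul.
Odc1: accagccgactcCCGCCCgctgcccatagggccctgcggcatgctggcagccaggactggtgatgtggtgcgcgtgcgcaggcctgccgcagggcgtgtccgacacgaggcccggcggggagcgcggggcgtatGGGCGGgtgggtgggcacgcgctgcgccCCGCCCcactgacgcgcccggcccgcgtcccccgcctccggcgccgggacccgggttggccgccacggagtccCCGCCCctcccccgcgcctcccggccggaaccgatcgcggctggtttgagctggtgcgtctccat
Otc: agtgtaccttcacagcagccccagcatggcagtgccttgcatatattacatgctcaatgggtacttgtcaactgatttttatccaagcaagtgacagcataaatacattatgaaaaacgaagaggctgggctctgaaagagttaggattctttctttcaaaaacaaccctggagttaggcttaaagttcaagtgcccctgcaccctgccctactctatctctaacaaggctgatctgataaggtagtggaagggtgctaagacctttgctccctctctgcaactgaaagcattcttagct
Glul: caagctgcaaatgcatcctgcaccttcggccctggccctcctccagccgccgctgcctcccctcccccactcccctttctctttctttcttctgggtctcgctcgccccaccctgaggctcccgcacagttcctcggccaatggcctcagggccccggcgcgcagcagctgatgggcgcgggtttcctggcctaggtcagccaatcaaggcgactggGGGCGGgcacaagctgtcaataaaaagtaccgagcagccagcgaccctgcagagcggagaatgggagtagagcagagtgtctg
The Odc1 window was 78% G and C and held 4 GC boxes, the Glul window was 64.3% G and C with 1 GC box, and the Otc window was 44.3% G and C with none. The median over 32851 mouse promoter windows was 52.7%, and 35.7% of them held the GC box. Windows were found for 6 of the 8 genes, and Cps1 and Asl are named only. The GC box stood in 5 of these 6, all but Otc. The E-box CACGTG, held by 7.15% of all windows, stood in those of Aldh18a1 and Ass1. None of the 6 held a TATA box (TATAAA, 13.6% of all windows), the HNF4 element AAAGTCCA (1.25%), the HNF1 element GTTAATNAT (0.801%), the AP-1 element TGANTCA (7.81%) or the C/EBP element TTGCNNAA (10.8%), each searched on both strands. A match of letters is a description of the window and was not tested as a site.

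Levels are given as FPKM, fragments on a gene scaled by its length in kilobases and by the total of the library, which can be set side by side between genes. Library totals, computed from the steps between FPKM values, were 37381850 to 37537463 fragments in the control group and 35512739 to 37143595 in the MMK-1 group. The groups separated along the first principal component (92.4% of the variance), and MMK-1 replicate 3 stood apart from the other MMK-1 libraries along the second (4.48%). The cell type markers moved with the treatment. Of 12 enterocyte markers 10 were lower and 1 was higher, and their summed level ran from 13948 to 14124 FPKM in the control libraries and from 9840 to 10613 in the MMK-1 libraries, whereas 8 of 8 stem cell markers were higher (76.2 to 78.9 against 414 to 442), as were 8 of 8 proliferation markers (220 to 223 against 372 to 382) and 5 of 5 Paneth cell markers measured (389 to 430 against 1266 to 1387). Of 6 goblet cell markers 5 were higher and 1 was lower. The summed immune markers were at most 6.19 FPKM and the mesenchymal markers at most 6.26 in any library, and the defining immune markers Ptprc, Cd3e and Adgre1 were at or near 0. These sums were lower with MMK-1, at 5.38 to 6.19 against 1.78 to 2.89 FPKM for the immune and 5.80 to 6.26 against 3.64 to 5.24 for the mesenchymal markers. The 2 immune markers tested, Cd68 and Itgam, were both lower, and Itgam passed the filter of mean FPKM only through its control values. Vim, the mesenchymal marker tested, was called lower (limma adjusted p = 0.0491), but its groups overlapped and the call was lost in 8 of 12 alternative fits. In these bulk libraries, fewer cells of a type and less RNA per cell cannot be told apart, and the part of these shifts in the results below was not tested.

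All 8 genes passed the filter of a mean FPKM of at least 1, and none had overlapping values in the groups. By limma on log2(FPKM + 1), with 0.05 as the limit for p after Benjamini-Hochberg adjustment, 6 genes were higher with MMK-1 (Cps1, Glul, Oat, Ass1, Asl and Aldh18a1), where 48.5% of the 10551 genes tested were, and 2 were lower (Otc and Odc1), where 24.7% were. When a fold change of 2 or more was required, with 0.05 as the limit for the unadjusted p, 1 gene was higher (Glul; 3.39% of the genes tested). Otc and Odc1, the 2 genes with lower levels at an unadjusted p under 0.05, did not reach this fold in limma, which 3.65% of the genes tested did. Values that did not overlap between groups were found in 76.8% of all genes tested, so that this property does not set the 8 genes apart. The median log2 fold change of the 8 was 0.20, beside 0.13 over all genes tested. Under upper-quartile scaling of the libraries it was 0.097 beside 0.037, and without MMK-1 replicate 3 it was 0.132 beside 0.116. In the exact two-sided permutation test of each gene, p was 0.1, the smallest that 3 against 3 libraries allow.

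**Figure D1:**
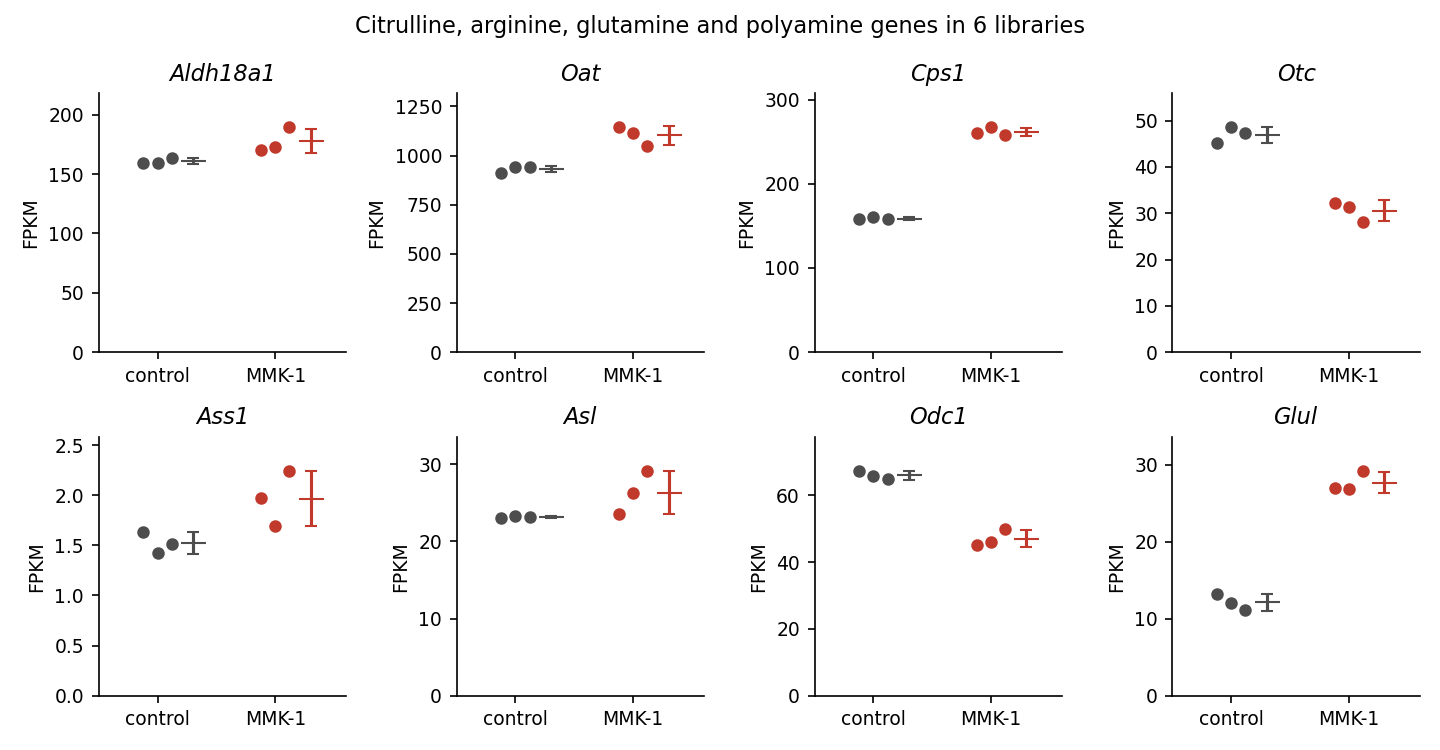
FPKM of each gene in the 3 control (grey) and 3 MMK-1 (red) libraries, on linear axes that start at 0; points are libraries in the order of their replicate numbers, and bars to the right are the mean and SD. Cps1 is at 157.8 to 160.4 FPKM in the control and at 257.8 to 267.1 in the MMK-1 libraries, while at least 1 MMK-1 library of Asl and of Ass1 lies close to the control libraries.

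The route from glutamate to ornithine begins with Aldh18a1 (chr19:40550257-40588463, minus strand), which encodes pyrroline-5-carboxylate synthase. Its level was 159.5, 159.6 and 163.7 FPKM in control replicates 1 to 3 and 170.7, 172.8 and 189.4 in MMK-1 replicates 1 to 3. The lowest MMK-1 library lay just above the highest control library. The means were 161.0 ± 2.41 (SD, n = 3) and 177.6 ± 10.3 (SD, n = 3), a ratio of 1.10, and the log2 fold change was 0.14 (SE 0.0473; limma adjusted p = 0.0249). This change was 0.0059 above the median of all genes tested, and under upper-quartile scaling of the libraries it was 0.03 (adjusted p = 0.574, limma).

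Oat (chr7:132557478-132576398, minus strand), ornithine aminotransferase, carries pyrroline-5-carboxylate to ornithine and back. It had the highest level of the 8 genes, above 99.3% of the genes tested in the control group. The control libraries held 911, 943 and 940 FPKM and the MMK-1 libraries 1144, 1116 and 1046. Here MMK-1 replicate 3 was the lowest of its group, and still above all control libraries. The mean rose 1.18-fold, from 931.5 ± 17.7 to 1102 ± 50.4 (SD, n = 3 each), with a log2 fold change of 0.24 (SE 0.0441; limma adjusted p = 0.00106). Relative to the median of all genes the rise was small, and it came to 0.13 under upper-quartile scaling.

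Citrulline is made in mitochondria by Cps1 (chr1:67123026-67231259, plus strand), carbamoyl phosphate synthetase, which supplies one substrate, and Otc (chrX:10252305-10321024, plus strand), ornithine transcarbamylase, which joins it to ornithine. The transcripts of this pair changed in opposite directions. Cps1 stood at 157.9, 160.4 and 157.8 FPKM in the control libraries and at 260.6, 267.1 and 257.8 with MMK-1, a gap far wider than the spread within either group. Its mean rose 1.65-fold, from 158.7 ± 1.5 to 261.9 ± 4.79 (SD, n = 3 each), and the log2 fold change was 0.72 (SE 0.0354; limma adjusted p = 3.69e-07). Otc stood at 45.1, 48.6 and 47.3 FPKM against 32.2, 31.4 and 28.0, and again the groups were well apart. Its mean was 1.54-fold lower with MMK-1, at 30.5 ± 2.22 beside 47.0 ± 1.72 (SD, n = 3 each), and the log2 fold change was -0.61 (SE 0.0581; limma adjusted p = 2.01e-05). The transcript of Otc had the lowest GC content of the 8, at 41.1%, and with a trend on GC content removed from each library its log2 fold change was -0.80.

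The genes for the next steps, which make arginine from citrulline, were Ass1 (chr2:31470207-31520672, plus strand), argininosuccinate synthetase, and Asl (chr5:130011258-130029247, minus strand), argininosuccinate lyase. Ass1 was the least abundant of the 8 genes, above only 7.97% of the genes tested in the control group, with 87 to 136 fragments per library. The control libraries held 1.64, 1.42 and 1.51 FPKM and the MMK-1 libraries 1.97, 1.69 and 2.24. The value of MMK-1 replicate 2 lay next to that of control replicate 1. The means were 1.52 ± 0.109 and 1.97 ± 0.278 (SD, n = 3 each), and the log2 fold change of 0.23 (SE 0.0789; limma adjusted p = 0.0258) understates the ratio of 1.29 because of the pseudocount at this level. Asl was far more abundant, with 23.1, 23.3 and 23.1 FPKM in the control libraries and 23.6, 26.2 and 29.2 with MMK-1. The control values were almost equal, and those of MMK-1 were spread out from near the control level upward. The means were 23.2 ± 0.103 and 26.3 ± 2.77 (SD, n = 3 each), a ratio of 1.14, with a log2 fold change of 0.17 (SE 0.0687; limma adjusted p = 0.0473). For each of these 2 genes the call was lost in 7 of 12 alternative fits, upper-quartile scaling and 4 or 5 of the 6 fits without a library among them.

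Odc1 (chr12:17544794-17551505, plus strand), ornithine decarboxylase, makes putrescine from ornithine and is the first step of polyamine synthesis. Its level was 67.4, 65.8 and 64.9 FPKM in the control libraries and 45.2, 46.0 and 49.9 with MMK-1. The highest MMK-1 library stayed well under the lowest control library. The mean was 1.40-fold lower with MMK-1, at 47.0 ± 2.48 beside 66.0 ± 1.30 (SD, n = 3 each), and the log2 fold change was -0.48 (SE 0.0468; limma adjusted p = 2.21e-05). This decrease stood beside higher levels of all 8 proliferation markers in the same libraries.

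Glul (chr1:153899944-153909723, plus strand) encodes glutamine synthetase, which joins ammonia to glutamate. It had 13.3, 12.03 and 11.1 FPKM in the control group and 27.0, 26.8 and 29.2 with MMK-1, so that every MMK-1 library held more than every control library by a wide gap. The mean rose 2.28-fold, from 12.1 ± 1.09 to 27.7 ± 1.33 (SD, n = 3 each). The log2 fold change was 1.13 (SE 0.0659; limma adjusted p = 1.02e-06), and 227 of the genes tested had a higher one. Glul shares 116 exon bases with Teddm2 and 93 with the microRNA gene Mir8114 in GENCODE vM21, of 3323 in all. Teddm2 itself was near 0 in both groups.

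**Figure D2:**
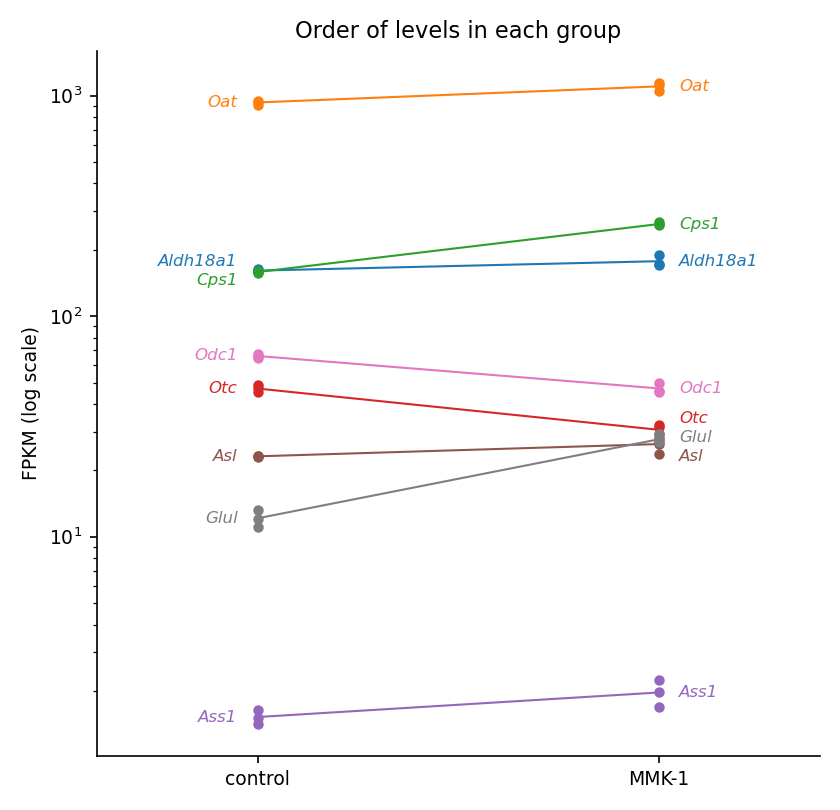
Level of each gene in the control and MMK-1 group, as FPKM on a log scale; points are libraries and lines join the group means. Oat is highest and Ass1 lowest in both groups, Cps1 moves from rank 3 to rank 2, and Otc, Glul and Asl come to lie close together with MMK-1.

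The order of levels in the control group was Oat, Aldh18a1, Cps1, Odc1, Otc, Asl, Glul and Ass1, and among neighbours only Aldh18a1 and Cps1 had overlapping values. With MMK-1 the order was Oat, Cps1, Aldh18a1, Odc1, Otc, Glul, Asl and Ass1. Otc and Glul overlapped in that group, as did Glul and Asl, and the other neighbours did not. Glul moved from above 58.3% to above 77.5% of the genes tested, and Otc from above 86.7% to above 79.5%. Together the 8 genes took 0.390% to 0.399% of all fragments in the control libraries and 0.479% to 0.494% in the MMK-1 libraries. Oat alone held 47.0% to 51.1% of these, and Cps1 added 33295 to 33994 fragments per control library and 52255 to 54192 per MMK-1 library.

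Ratios between genes within a library do not depend on how libraries are scaled. The 3 ratios below were chosen after the values had been seen, and are given as descriptions. The level of Cps1 was 3.50, 3.30 and 3.34 times that of Otc in the control libraries and 8.08, 8.52 and 9.20 times with MMK-1, and the mean ratio went from 3.38 ± 0.103 to 8.60 ± 0.562 (SD, n = 3 each). Oat rose relative to Odc1, from 14.1 ± 0.526 to 23.5 ± 2.25. In contrast, the ratio of Oat to Aldh18a1 was 5.71, 5.91 and 5.74 in the control libraries and 6.70, 6.46 and 5.52 with MMK-1, and the groups overlapped.

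**Figure D3:**
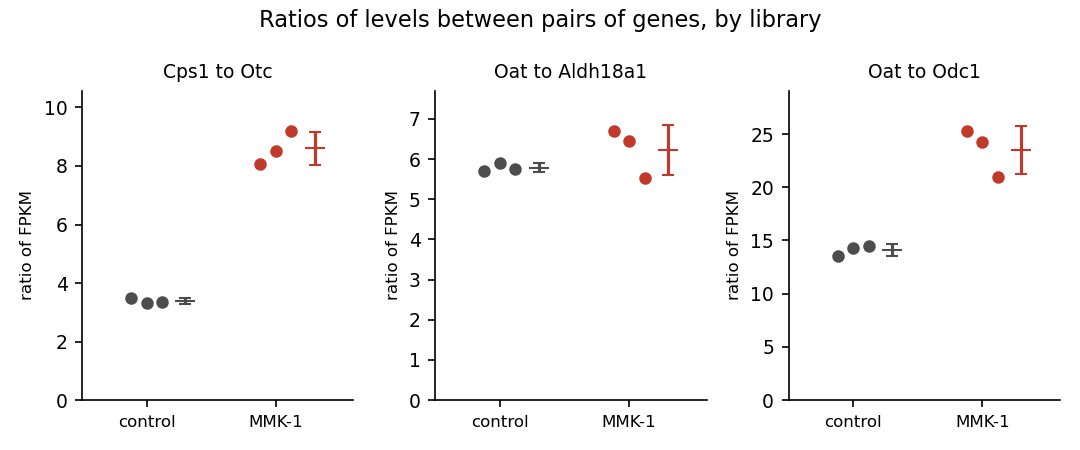
Ratio of FPKM between pairs of genes in each library, for 3 control (grey) and 3 MMK-1 (red) libraries, with the mean and SD to the right; axes start at 0. The groups are apart for Cps1 to Otc and for Oat to Odc1, and overlap for Oat to Aldh18a1.

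MMK-1 replicate 3, the library that stood apart, was the highest or the lowest of its group for all 8 genes. It was highest for Aldh18a1, Ass1, Asl, Odc1 and Glul and lowest for Oat, Cps1 and Otc, and it was at an end of its group for 84.6% of all genes tested. The GC content of the transcripts was 49.2% to 55.5% for the former 5 and 41.1% to 47.3% for the latter 3, and the part of base composition in these differences was not tested. Without this library 4 genes were called higher and 2 lower, where 49.2% and 27.9% of all genes tested were, with log2 fold changes of 0.73 for Cps1, -0.55 for Otc, 0.28 for Oat, -0.52 for Odc1 and 1.09 for Glul. Aldh18a1 kept its call (0.09; limma adjusted p = 0.00987), whereas Ass1 (0.16; limma adjusted p = 0.0628) and Asl (0.10; limma adjusted p = 0.0743) did not.

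**Figure D4:**
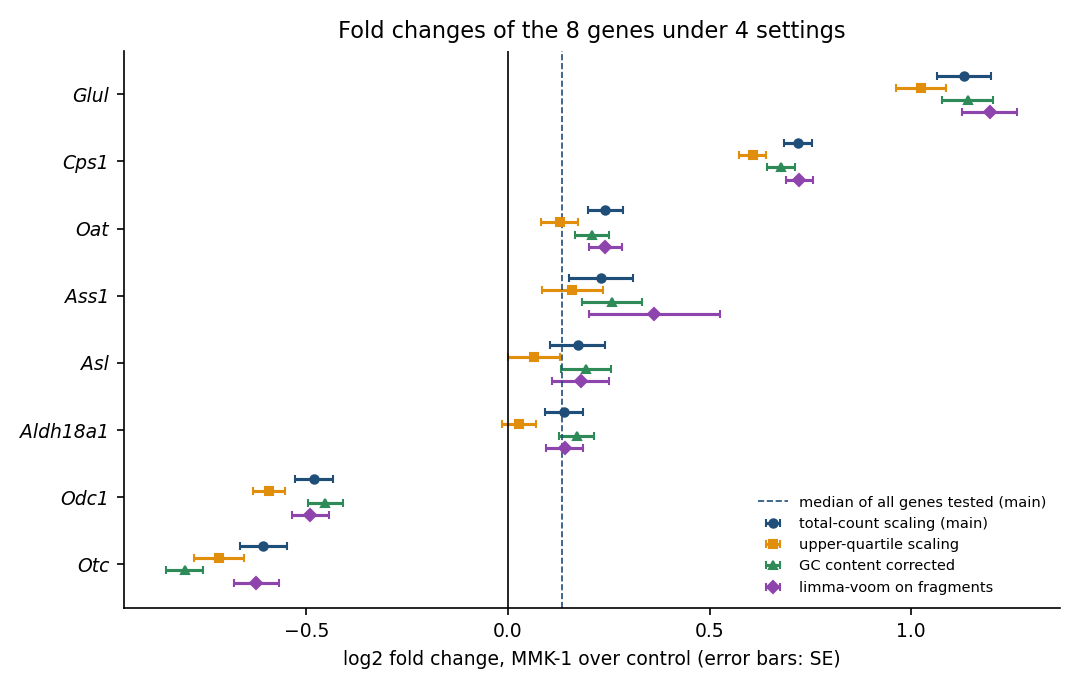
Log2 fold change of each gene (points) with its SE (bars) under total-count scaling, upper-quartile scaling, a correction for GC content and limma-voom on fragments; the dashed line is the median of all genes tested, 0.13, under total-count scaling. Otc, Odc1, Cps1 and Glul stay far from 0 in all 4, while Aldh18a1 and Asl approach 0 under upper-quartile scaling.

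Upper-quartile scaling moved the median of all genes from 0.13 to 0.037, and with it 3 genes were called higher (Cps1, Glul and Oat) and 2 lower, where 38.9% and 33.1% of all genes tested were. Cps1, Otc, Oat, Odc1 and Glul kept their direction and call in all 12 alternative fits. Their log2 fold changes ranged from -0.80 to -0.55 for Otc, from -0.59 to -0.45 for Odc1, from 0.61 to 0.73 for Cps1, from 0.13 to 0.28 for Oat and from 1.02 to 1.19 for Glul.

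Around the 8 genes, 60 other genes of these pathways were followed in 9 groups by role. The table held 59 of them and 48 were tested, of which 26 were higher, 15 were lower and 7 were not called, where 48.5% and 24.7% of all genes tested were higher and lower. These shares are also the background of the counts by group given below. The median log2 fold change was 0.19 beside 0.13 over all genes tested. Under upper-quartile scaling 20 were higher and 20 were lower, where 38.9% and 33.1% of all genes tested were. Gls2, Nos2 and Slc7a6 had a control mean under 1 FPKM and passed the filter only through their MMK-1 values, so that they had to differ to be tested. Their calls and their place in the counts and medians are given as descriptions. With a fold change of 2 or more on the log2(FPKM + 1) scale of limma, Gls2 was higher and Gpt, Gamt and Slc7a9 were lower. This scale understates genes of low level, and by the ratio of mean FPKM Nos2 (3.73), Slc7a6 (3.08) and Paox (2.08) were also past a ratio of 2. The Pycr3 gene is listed under its older symbol Pycrl.

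**Figure D5:**
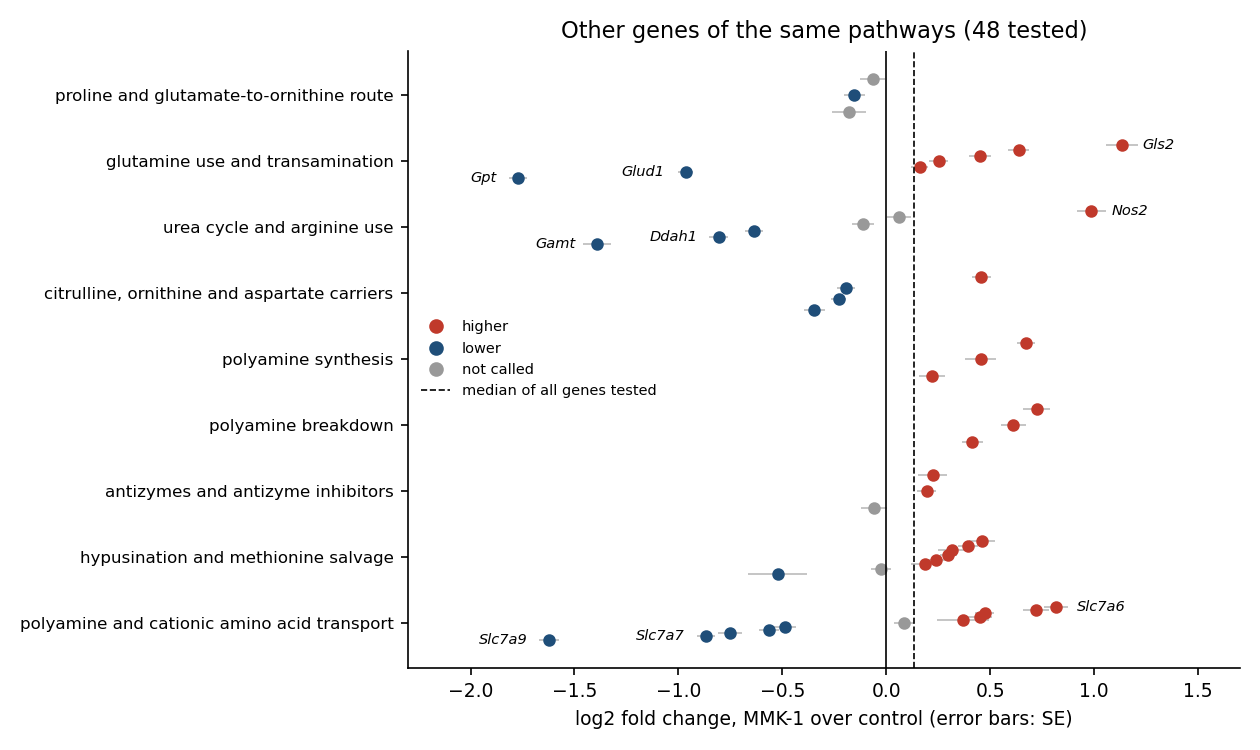
Log2 fold change (points) with its SE (grey bars) of 48 other genes of the pathways by role, colored by the limma call (adjusted p up to 0.05); the dashed line is the median of all genes tested. Gpt and Slc7a9 lie farthest to the left, at -1.77 and -1.62, and Gls2 farthest to the right, at 1.13.

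On the route between proline, glutamate and ornithine, 3 of 5 genes were tested, of which 1 was lower and 2 were not called, with a median of -0.15. The number called lower was 3 under upper-quartile scaling and without MMK-1 replicate 3, and 0 by limma-voom and, in limma, without control replicate 1, MMK-1 replicate 1 or MMK-1 replicate 2. In these 4 fits 1 gene was lower at an unadjusted p under 0.05, except without MMK-1 replicate 2, where none was. The lower gene was Prodh, which starts proline breakdown (-0.15; limma adjusted p = 0.0239), a call lost in 5 of 12 alternatives. Of 7 genes of glutamine use and transamination, 5 were higher, 2 were lower and the median was 0.25, Gls2 included. Under upper-quartile scaling 4 were higher, 2 were lower and the median was 0.14, where 38.9% and 33.1% of all genes tested were called. The alanine aminotransferase Gpt went from 71.7, 70.8 and 72.2 FPKM to 20.2, 19.4 and 21.2, and its mean was 3.53-fold lower (log2 fold change -1.77, SE 0.0431; limma adjusted p = 7.84e-09). Glud1, the glutamate dehydrogenase of mitochondria, fell from 154 ± 0.809 to 78.4 ± 1.46 FPKM (log2 fold change -0.97). The glutaminase gene Gls2, tested only through its MMK-1 values, had 0.601 ± 0.127 FPKM in the control and 2.51 ± 0.167 in the MMK-1 libraries, a ratio of 4.17 (log2 fold change 1.13 with the pseudocount of 1).

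Of the other urea cycle and arginine genes, 6 of 9 were tested, with 1 higher, 3 lower and a median of -0.37, Nos2 included. Nos2, the inducible nitric oxide synthase that turns arginine into citrulline, was the gene called higher and passed the filter only through its MMK-1 values, with 0.559 ± 0.0766 FPKM in the control and 2.09 ± 0.167 in the MMK-1 libraries (log2 fold change 0.98). The methyltransferase Gamt of creatine synthesis was lower (-1.39), as was Ddah1 (-0.81), which breaks down methylated arginine. Nags, whose product N-acetylglutamate is required for the activity of Cps1, fell from 36.2 ± 0.342 to 22.9 ± 0.943 FPKM (log2 fold change -0.64, SE 0.0430; limma adjusted p = 2.41e-06), opposite in direction to Cps1. The Odc1-related Azin2 was at 2.14, 1.85 and 1.97 FPKM in the control libraries and 2.11, 2.14 and 2.09 with MMK-1 and was not called (limma adjusted p = 0.365). Among the mitochondrial carriers 4 of 6 were tested, with 1 higher, 3 lower and a median of -0.21. The ornithine carrier Slc25a15 was lower (68.3 ± 1.06 against 58.1 ± 0.193 FPKM, log2 fold change -0.23), as was the aspartate and glutamate carrier Slc25a12 (-0.35), whereas its paralog Slc25a13 was higher (0.46).

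Downstream of Odc1, all 3 tested genes of polyamine synthesis were higher, with a median of 0.45. Amd1, S-adenosylmethionine decarboxylase, had 14.0, 13.4 and 13.8 FPKM in the control libraries and 21.7, 22.8 and 23.0 with MMK-1 (log2 fold change 0.67, SE 0.0435; limma adjusted p = 1.84e-06). The groups were clearly apart. The spermidine synthase gene Srm was also higher (0.45), as was the spermine synthase gene Sms (0.22), whose call was lost under upper-quartile scaling and the correction for GC content. All 3 tested genes of polyamine breakdown were higher too, with a median of 0.61 at the pseudocount of 1, 0.93 at a pseudocount of 0.1 and 0.99 by limma-voom on fragments. The oxidases Paox (0.72) and Smox (0.61) were at low levels, 1.54 and 1.13 FPKM in the control group, and their log2 ratios of mean FPKM were 1.05 and 0.99. In addition, Sat1, the spermidine and spermine acetyltransferase, rose from 63.0 ± 2.16 to 84.2 ± 4.56 FPKM (log2 fold change 0.41).

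The antizymes bind the Odc1 protein and direct it to degradation, and antizyme inhibitors compete for them. Of 3 tested genes 2 were higher and 1 was not called, with a median of 0.19, which under the correction for GC content was -0.03. Oaz1 was higher (0.19; limma adjusted p = 0.00431), but not under upper-quartile scaling (0.08; limma adjusted p = 0.11), and Oaz2 was not called, but was lower under upper-quartile scaling (-0.17; limma adjusted p = 0.0365), where none of the 3 was higher. The antizyme inhibitor Azin1 held 27.5, 27.2 and 22.9 FPKM with MMK-1 beside 21.6 to 22.2 in the control group (log2 fold change 0.22; limma adjusted p = 0.0159), and its call was lost in 5 of 12 alternatives, those without MMK-1 replicate 1 or 2 among them, with the direction turned under the correction for GC content (-0.04).

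Of 8 tested genes of hypusination, the polyamine-dependent modification of the translation factor eIF5A, and of methionine salvage, 6 were higher, 1 was lower and the median was 0.27. Under upper-quartile scaling 5 were higher, 2 were lower and the median was 0.16, where 38.9% and 33.1% of all genes tested were called. Dohh, one of the 6 higher, kept its call in only 4 of 12 alternatives. Dhps, the enzyme that starts hypusination, was higher (0.46), as was Adi1 of methionine salvage (0.39), and Apip of the same route was lower (-0.52, SE 0.140). Apip held 2.68, 3.43 and 4.49 FPKM in the MMK-1 libraries and 4.71, 6.23 and 5.44 in the control libraries. Transporters of polyamines and cationic amino acids were split, with 5 of 11 higher, 5 lower and a median of 0.08 (-0.02 under upper-quartile scaling), Slc7a6 included. Atp13a3, one of the 5 higher, had overlapping groups, with 53.5, 50.9 and 36.0 FPKM with MMK-1 beside 35.1 to 36.1 in the control group. Its call was kept in only 4 of 12 alternatives. Slc7a9, the light chain of the apical exchanger that takes up cystine and cationic amino acids, fell from 105 ± 1.74 to 33.6 ± 2.02 FPKM (log2 fold change -1.62, SE 0.0487; limma adjusted p = 2.52e-08), and Slc7a7, a light chain of basolateral export, was lower too (-0.87). Slc7a6, its paralog and one of the 5 higher, was also tested only through its MMK-1 values, with 0.574 ± 0.0102 FPKM in the control and 1.77 ± 0.0403 in the MMK-1 libraries (log2 fold change 0.81).

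The profiles most like those of the 8 genes were found by the root-mean-square distance between centred log2(FPKM + 1) values over the 6 libraries, which all share. The nearest to Otc were Slc26a3 (distance 0.0315), Rfk (0.0351) and Pdlim2 (0.0382). For Odc1 they were Aldh2 (0.00932), Dlst (0.0123) and AU040320 (0.0131). The nearest to Cps1 were Nusap1 (0.0204), Mex3c (0.0208) and Haus4 (0.0233), and to Glul Qsox2 (0.0345), P4ha2 (0.0367) and Kcnk1 (0.0408). Oat was nearest to Arfgef1 (0.0197), Cdkn2aip (0.0198) and Dmxl1 (0.0202). Aldh18a1, at the median of all genes, was nearest to the translation genes Eif4h (0.00530), Rps12 (0.00939) and Rps3a1 (0.0112). Asl was nearest to Rnf25 (0.0121), Smug1 (0.0192) and Ercc8 (0.0212), and Ass1 to Phf12 (0.0302), Scap (0.0306) and Gm19619 (0.0324).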

How the data were processed

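RNA-seq libraries of 3 control and 3 MMK-1 samples were analysed. The authors deposited FPKM values for 21397 genes, made from 150-bp paired-end reads, and the submitters' processing notes name HISAT2, HTSeq, R 3.2.0, DESeq2 and mm10. The annotation and the strand setting of the counting are not given in the sources used here. The FPKM of a gene are whole fragments times a factor per library, from which fragments and library totals were computed, and 99.7% of fragments lay on listed genes. Counts cover counting error only.

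Groups were compared with limma 3.58.1 in R 4.3.3, with a mean-variance trend, on log2(FPKM + 1), which understates changes of low genes, over the 10551 genes whose mean FPKM was 1 or more. P-values were Benjamini-Hochberg adjusted over all genes tested, and calls were made at 0.05 or at a fold change of at least 2 with p of at most 0.05. The fit was tested on simulated data in which a small part of the genes changed, a setting unlike these data. Alternatives were upper-quartile scaling, all 20676 genes above 0, a pseudocount of 0.1, limma-voom on fragments, a replicate block, leaving out each library and removal of a trend on GC content (local regression, span 0.3, 96.3% of tested genes with a value). Permutation tests were exact. The members, the gene lists and the tests were chosen with earlier results of these data known. The genes named were the members and up to 3 called genes with the largest change in each list of pathway genes. Azin1 and Azin2 were named as related to Odc1, and the 3 genes nearest to each member were named too. Nags, Oaz2, Atp13a3 and Dohh were added after their values were seen. A member and some pathway genes are not reported here. Gene coordinates are from GENCODE vM21 (GRCm38) and promoters from RefSeq (GRCm38.p6), which may place starts elsewhere than the annotation behind the table. Fragments and tables were computed in Python 3.11.15 (pandas 2.3.3, numpy 2.4.6).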

Additional observations from a re-analysis of the deposited data

How the results depend on the processing

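The number of members called higher, 6, became 3 under upper-quartile scaling, 3 with every gene above 0 in the fit, 1 when the fold change had to reach 2, 2 when it had to reach 1.5, and 3 to 5 when 1 library was left out, with the lowest number without control replicate 2. The number called lower, 2, became 0 when the fold change had to reach 2 and 1 when it had to reach 1.5, and was 2 in all 12 alternative fits. Of all genes tested, 38.9% were higher and 33.1% lower under upper-quartile scaling, and 3.39% and 3.65% at a fold change of 2. Without MMK-1 replicate 3 these shares were 49.2% and 27.9%. For the other settings the shares were not computed, and the counts are descriptions. In the 12 alternative fits the calls of Ass1, Asl and Aldh18a1 were the ones lost, and no direction reversed among the 8 genes. The cause was not tested. Adding the replicate number as a block left 6 members higher and 2 lower, with 26 and 15 of the other pathway genes. Control and MMK-1 libraries of the same number did not deviate together across genes (correlations of 0.0253, -0.0400 and 0.0279). These values cannot show whether such libraries shared mice or a culture day, which no label states. Other pathway genes called higher ranged from 20 to 26 and called lower from 14 to 20 over the 12 fits, beside 26 and 15. The shares of all genes tested moved as well, from 48.5% and 24.7% in the main fit to 38.9% and 33.1% under upper-quartile scaling. Depth limits Ass1, with 87 to 136 fragments per library, and the 3 against 3 design limits the exact test to 0.1.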
